A study of Mus musculus with 6 samples.

Results

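The 33 genes described here encode the metalloproteinases that cut extracellular matrix and the inhibitors that hold them back: 15 matrix metalloproteinases (MMPs), 14 proteases of the ADAMTS family and the 4 tissue inhibitors of metalloproteinases (TIMPs). They were chosen by symbol from a list of MMPs, TIMPs and ADAMTS proteases that leaves out the procollagen propeptidases and some others, and all 33 were found among the 56748 genes of the count tables. RNA had been sequenced from the tibiae of female mice 12 weeks old, in 3 samples of genotype Col1a1+/- and 3 wild-type (WT) samples, all untreated as far as the labels say. Col1a1 codes for the major chain of bone collagen, and people with only a single working copy commonly have the mildest form of osteogenesis imperfecta. The labels do not give how the Col1a1 allele was made, the strain, or whether a sample is 1 animal, so p-values measure the spread between these samples only. The marrow was removed by flushing ahead of RNA extraction, and 26830644 to 32379684 counted reads were obtained per library.

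MMPs are zinc enzymes made as inactive precursors. A cysteine in the propeptide blocks the active site until the propeptide is cut off, by furin-like enzymes inside the cell or by plasmin and other MMPs outside it. In bone, osteoblasts, osteocytes, hypertrophic chondrocytes and osteoclasts use them to open and remodel collagen, whereas ADAMTS proteases mainly trim the large proteoglycans aggrecan and versican, fibrillin microfibrils and cartilage glycoproteins. TIMPs fill the active site of MMPs one to one, and TIMP-3, which stays bound to the matrix, is also the main inhibitor of the aggrecan-cleaving ADAMTS enzymes.

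Members that lie close together form a run of MMP genes on chromosome 9, with 1 gene between Mmp3 and Mmp10. Their promoters are shown because these genes share sequence features and yet stood at opposite ends of the range of levels. On GRCm39, the build of the count tables, Mmp13 lies at 7272514 to 7283331, Mmp12 at 7344381 to 7369499, Mmp3 at 7445822 to 7455975 and Mmp10 at 7502353 to 7510241, all on the plus strand. The sequences below are RefSeq's, on GRCm38.p6, and give the 120 bases before the annotated start, on the strand of the gene. Capitals mark the AP-1 motif TGANTCA, the TATA box TATAAA and the RUNX motif TGTGGT, which reads ACCACA on the other strand.
Mmp13 promoter, chr9:7272394-7272513, plus strand: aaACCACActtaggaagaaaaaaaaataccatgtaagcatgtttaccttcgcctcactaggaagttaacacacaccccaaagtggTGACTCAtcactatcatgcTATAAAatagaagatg
Mmp12 promoter of its second annotated start, chr9:7347254-7347373, plus strand: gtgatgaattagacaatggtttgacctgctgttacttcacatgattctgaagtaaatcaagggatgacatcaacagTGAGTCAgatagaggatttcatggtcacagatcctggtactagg
Mmp3 promoter, chr9:7445702-7445821, plus strand: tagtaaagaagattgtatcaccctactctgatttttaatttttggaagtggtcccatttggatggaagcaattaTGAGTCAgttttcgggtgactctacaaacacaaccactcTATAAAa
Mmp10 promoter, chr9:7502222-7502341, plus strand: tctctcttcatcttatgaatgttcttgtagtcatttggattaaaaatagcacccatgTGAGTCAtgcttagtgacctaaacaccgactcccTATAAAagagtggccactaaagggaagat
The window of the first annotated Mmp12 start, which is not printed, held none of these 3 motifs. All 4 printed windows held an AP-1 motif, which began at -35 in Mmp13, -44 in Mmp12, -46 in Mmp3 and -63 in Mmp10, counted back from the start site to the first base of the motif. Mmp13, Mmp3 and Mmp10 also held a TATA box, at -16, -7 and -29, and the RUNX motif was found in Mmp13, at -118. The bases just after the Mmp10 start were not found in a GENCODE transcript of that gene, so its positions are less certain. Among all 32851 promoter windows of 250 bases in that table, searched on both strands, 6.75% held the AP-1 motif, 12.4% the TATA box and 14% the RUNX motif. A promoter was at hand for 21 of the 33 members, and the AP-1 motif occurred in 4 of them, the chromosome 9 genes alone, with Mmp12 counted by its second start.

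Promoters of 3 of the 4 members that rose in Col1a1+/- are shown for comparison, with the 250 bases before the start and with the GC box GGGCGG or the RUNX motif in capitals. On the other strand the GC box reads CCGCCC. Mmp16, the other member that rose, has no entry in the table.
Timp1 promoter, GRCm38.p6 chrX:20869916-20870165, plus strand: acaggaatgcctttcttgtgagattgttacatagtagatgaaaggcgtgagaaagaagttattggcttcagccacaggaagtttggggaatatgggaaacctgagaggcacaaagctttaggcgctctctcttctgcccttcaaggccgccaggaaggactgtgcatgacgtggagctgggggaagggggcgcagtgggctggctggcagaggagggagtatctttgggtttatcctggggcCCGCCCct
Mmp23 promoter of the first of its 2 annotated starts, GRCm38.p6 chr4:155653385-155653634, minus strand: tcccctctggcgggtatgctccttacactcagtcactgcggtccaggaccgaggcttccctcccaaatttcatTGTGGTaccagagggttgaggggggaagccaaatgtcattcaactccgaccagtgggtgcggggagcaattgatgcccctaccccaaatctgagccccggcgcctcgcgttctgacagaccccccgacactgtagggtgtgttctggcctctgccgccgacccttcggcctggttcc
Adamts18 promoter, GRCm38.p6 chr8:113848840-113849089, minus strand: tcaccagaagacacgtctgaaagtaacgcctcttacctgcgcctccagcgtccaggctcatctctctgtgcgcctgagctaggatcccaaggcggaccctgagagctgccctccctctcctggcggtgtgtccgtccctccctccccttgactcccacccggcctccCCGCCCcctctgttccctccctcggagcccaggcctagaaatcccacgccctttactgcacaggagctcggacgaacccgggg
Timp1 and Adamts18 each held a GC box, at -8 and -83, which 32.7% of all windows held and 13 of the 21 members with a promoter. The bases just after the Adamts18 start were not found in a GENCODE transcript of that gene, so its position is less certain. None of the 3 windows held the AP-1 motif or the TATA box. None of the 4 motifs searched was found in all 3. The window of the second annotated Mmp23 start, which is not printed, held none of the 4 motifs.

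The levels of the 33 genes spanned several orders of magnitude, and collagenase led them. Levels are counts-per-million (CPM) with libraries scaled by TMM (the trimmed mean of M values), and levels of different genes are compared per kilobase of exon. Mmp13, the main interstitial collagenase of mouse bone and growth plate, had the highest level, at 666 CPM per kilobase in Col1a1+/- and 603 in WT. Next, by the mean over all 6 libraries, came Timp1 (154 and 83.5), Timp2 (125 and 101), the gelatinase gene Mmp2 (119 and 79.7) and the membrane collagenase gene Mmp14 (104 and 83.9). In Col1a1+/- alone the order was the same, and in WT alone Timp2 and Mmp14 stood above Timp1 and Mmp2. These 5 genes made up 86.86% to 90.44% of the summed level of all members in every library. Mmp23 (39.8 and 24.3) and Adamts10 (30.1 and 23.5) followed, and the next was Timp3 (12.5 and 9.78).

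The lowest levels were those of Mmp10 and Mmp24. Mmp10, a stromelysin, took 4, 4 and 5 counts in the Col1a1+/- libraries and 3, 0 and 0 in WT. Mmp24, a membrane MMP best known from the nervous system, took 4, 0 and 0 counts in Col1a1+/- and 6, 0 and 2 in WT. If counts are independent, a count of 0 allows up to 3 counts, or 0.0899 to 0.1087 CPM depending on the library, by counting error alone. Among genes with 1 to 20 counts in a library, 61.796% to 64.228% had an even count. Counts may therefore not be independent and the bound may be wider, which was not tested. Neither gene passed the filter on low counts, so 31 members were tested.

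**Figure D1:**
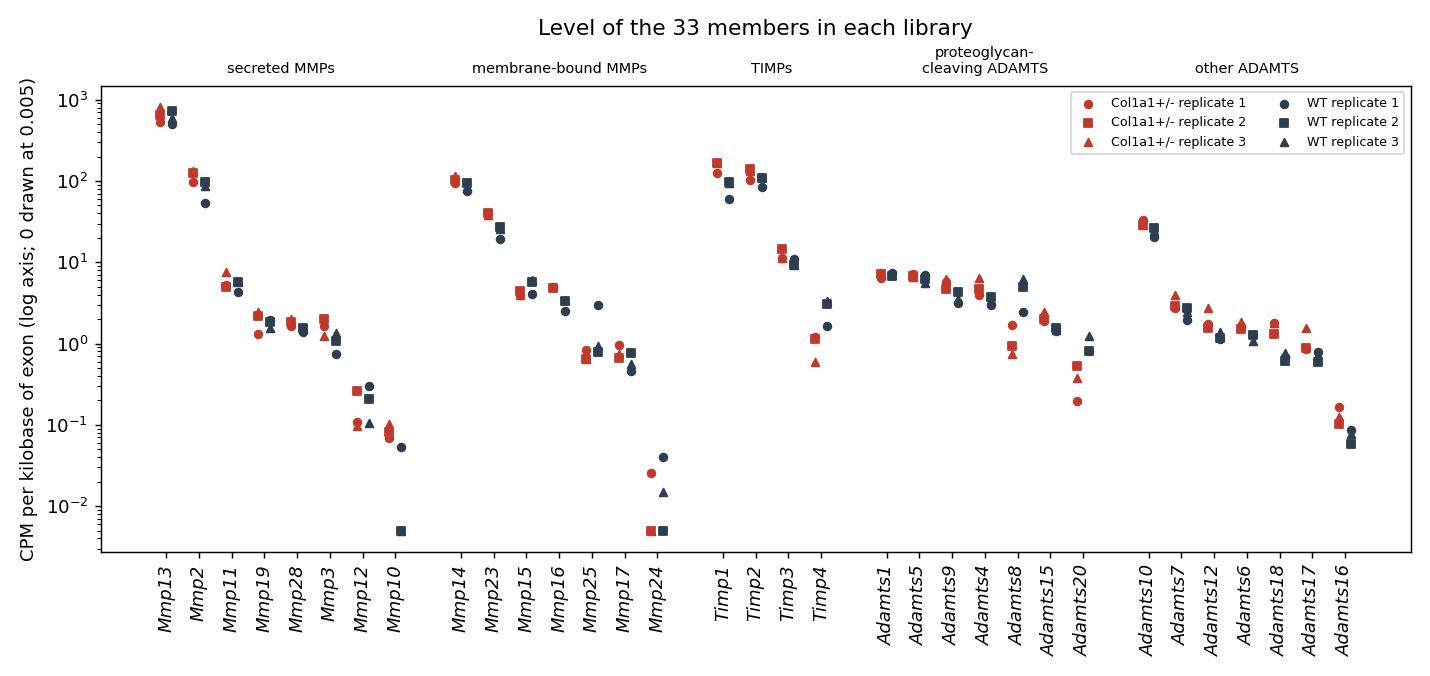
Level of each of the 33 members in CPM per kilobase of exon (log axis), by library, with Col1a1+/- (red) left of WT (dark) and members grouped by role. Mmp13 lies highest and Mmp24 lowest, and the genotypes are close beside the range between genes.

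Some facts of the libraries bear on every comparison. Col1a1, the targeted gene, stood at 61149, 52880 and 59598 CPM in Col1a1+/- and 36810, 61347 and 54799 CPM in WT, so its level did not tell the genotypes apart. Its count ratio to Col1a2, which encodes the partner chain, did (0.8363, 0.7754 and 0.8229 in Col1a1+/-, against 1.319, 1.249 and 1.271 in WT). Skeletal muscle genes (20 of 20 with counts in every library) took 1.997% to 4.035% of counts in Col1a1+/- and 6.336% to 7.927% in WT. Chondrocyte markers (12 of 12) took 0.5741% to 0.7166% in Col1a1+/- and 0.2538% to 0.352% in WT, and osteoblast markers (13 of 13) took 13.48% to 15.46% and 7.838% to 11.1%. Col1a1 and Col1a2 are among these osteoblast markers and held most of their counts, so this share mainly reflects the collagen genes. Neutrophil markers (12 of 12) took 0.1057% to 0.176% in Col1a1+/- and 0.1505% to 0.638% in WT, with WT replicate 1 the highest. No marker of these lists was at 0. In whole tissue, fewer cells of a type and less RNA per cell cannot be told apart.

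Between the genotypes, 4 of the 31 tested members rose in Col1a1+/- and none fell, by edgeR's quasi-likelihood test with Benjamini-Hochberg adjusted p under 0.05 over all 18514 tested genes. Among all tested genes 4.34% were called, 1.43% higher and 2.91% lower. The members that rose were Timp1, Mmp23, Mmp16 and Adamts18. The median log2 fold change (Col1a1+/- over WT) was 0.36 over the tested members and -0.01 over all tested genes, with 25 of 31 members above 0, as were 49.1% of all tested genes. In 15 members all Col1a1+/- libraries lay above all WT libraries, and in 3 they lay below, where 14.0% and 14.5% of all tested genes did so. At an unadjusted p under 0.05 there were 17 of the 31 members and 4228 of all 18514 tested genes.

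The calls depended on single libraries. No member was called by edgeR when Col1a1+/- replicate 1, Col1a1+/- replicate 3, WT replicate 2 or WT replicate 3 was left out, nor with a muscle covariate or with an erythroid and neutrophil covariate. The muscle covariate did not overlap between genotypes, so its part and that of genotype cannot be told apart in any fit that holds it. The erythroid and neutrophil covariate, a single term, averaged the mean log2 CPM of both marker lists and hardly overlapped between genotypes. Its neutrophil part was 5.792 to 6.628 in Col1a1+/- and 6.545 to 8.351 in WT, and its erythroid part overlapped. It is therefore poorly separated from genotype in any fit that holds it. Without Col1a1+/- replicate 2 Timp1 was not called, and Adamts9 was called higher and Adamts20 lower. Over all genes, leaving out 1 library gave 0 to 594 calls higher and 0 to 1172 lower, and the muscle covariate gave none in either direction, with 1144 genes at an unadjusted p under 0.05. With 1 library left out, 13 to 18 members had an unadjusted p under 0.05. The fold changes of the 4 genes stayed above 0 under all 15 alternatives run. With libraries scaled on osteocyte genes, which shifts the median of all genes to -0.57, the member median turned to -0.15, 0 members were called higher and 4 lower. The osteocyte markers themselves took 0.1856% to 0.2483% of counts in Col1a1+/- and 0.1151% to 0.1694% in WT. This scale therefore removes a difference between the genotypes that the markers themselves hold.

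**Figure D2:**
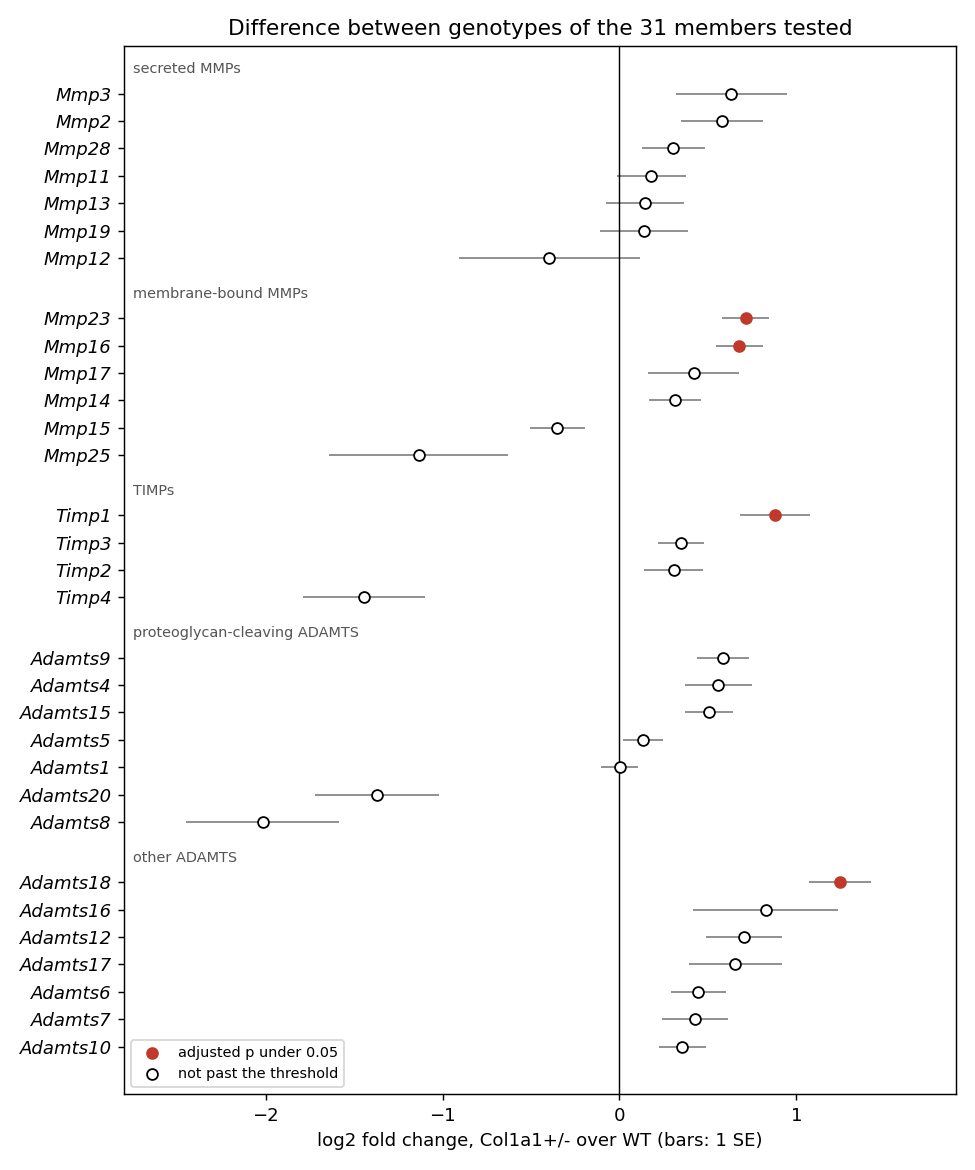
Log2 fold change, Col1a1+/- over WT, of the 31 members tested, grouped by role, with bars of 1 SE. Filled points are the 4 genes past an adjusted p of 0.05, and 25 of the 31 points lie right of 0, which with libraries scaled on osteocyte genes held for 9.

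Among the secreted MMPs none of 7 tested genes passed the threshold (median log2 fold change 0.18, 6 of 7 above 0). Mmp13 stood at 1406, 1750 and 2187 CPM in Col1a1+/- and 1331, 1928 and 1578 CPM in WT. The genotypes overlapped, with a log2 fold change of 0.14 (SE, the standard error, 0.22, edgeR adjusted p = 0.752). Mmp2, which encodes gelatinase A, an enzyme that cuts denatured collagen, stood at 325, 426 and 453 CPM in Col1a1+/- and 180, 330 and 295 CPM in WT. WT replicate 1 was the lowest, Col1a1+/- replicate 1 fell just below WT replicate 2, and the log2 fold change was 0.58 (SE 0.23, edgeR adjusted p = 0.18). With an erythroid and neutrophil covariate, which is poorly separated from genotype, the log2 fold change of Mmp2 was 0.030, and on the osteocyte scale 0.090. A gene on the opposite strand covers 25.48% of the Mmp2 exon length, and reads over both genes were not counted.

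The other secreted MMPs were far lower. Mmp12, the macrophage elastase gene, had 26, 54 and 20 counts in Col1a1+/- and 70, 41 and 22 in WT, a log2 fold change of -0.40 (SE 0.51, edgeR adjusted p = 0.699). Mmp3, a stromelysin that activates other MMPs, stood at 2.97, 3.6 and 2.22 CPM in Col1a1+/- and 1.33, 1.92 and 2.42 CPM in WT. Within the chromosome 9 run whose promoters are printed above, Mmp13 thus stood at 666 CPM per kilobase in Col1a1+/-, Mmp3 at 1.63, Mmp12 at 0.155 and Mmp10 at 0.0844, and in WT at 603, 1.05, 0.203 and 0.018. None of the 3 tested genes of the run was called between genotypes. Mmp11, the furin-activated stromelysin-3 gene, had a log2 fold change of 0.18, Mmp19 of 0.14 and Mmp28, the epilysin gene, of 0.31. Mmp28 was low (7.08 ± 0.773 CPM in Col1a1+/- and 5.72 ± 0.397 CPM in WT, SD, n = 3 each), with the genotypes not overlapping and an adjusted p of 0.354 by edgeR.

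The membrane-bound MMPs held 2 of the 4 genes that rose. Mmp23 (ENSMUSG00000029061, chromosome 4, 155735112 to 155737841, GRCm39, minus strand) encodes an unusual MMP that is anchored by its propeptide and set free by a furin-type cut. It stood at 94.8, 95.4 and 89.2 CPM in Col1a1+/- and 45.5, 64.1 and 60.9 CPM in WT. Every Col1a1+/- library was above every WT library, and the Col1a1+/- values were close together (93.1 ± 3.39 CPM, against 56.8 ± 9.91 CPM in WT, SD, n = 3 each). The rise was 1.64-fold (log2 fold change 0.71, SE 0.14, edgeR adjusted p = 0.0321).

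Mmp16 (ENSMUSG00000028226, chromosome 4, 17852893 to 18119145, GRCm39, plus strand) encodes MT3-MMP, a membrane collagenase that in mice acts together with MT1-MMP in building the skeleton. It stood at 43.6, 41.8 and 42.8 CPM in Col1a1+/- and 21.6, 29 and 29.5 CPM in WT. The Col1a1+/- libraries varied least of all tested members, with a coefficient of variation of 2.12% where the median member had 16.44%. Mmp16 rose 1.6-fold (log2 fold change 0.68, SE 0.13, edgeR adjusted p = 0.0336). Both genes kept a log2 fold change of at least 0.58 in the 6 comparisons with 1 library left out, while their adjusted p reached 0.134 for Mmp16 and 0.131 for Mmp23 by edgeR.

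Mmp14, which encodes MT1-MMP, the chief pericellular collagenase and the activator of gelatinase A, did not pass the threshold. It stood at 559, 610 and 694 CPM in Col1a1+/- and 452, 557 and 491 CPM in WT. All Col1a1+/- libraries were above all WT libraries, narrowly for the nearest pair, and the log2 fold change was 0.31 (SE 0.15, edgeR adjusted p = 0.246). Mmp15, the MT2-MMP gene, stood at 21.3, 24.3 and 21.4 CPM in Col1a1+/- and 22.2, 30.8 and 32.4 CPM in WT (log2 fold change -0.35, edgeR adjusted p = 0.22). Without WT replicate 1 edgeR called Mmp15 lower (log2 fold change -0.47, adjusted p = 0.0356), and with a muscle covariate its log2 fold change was 0.11. Mmp17, which encodes a lipid-anchored MMP, had a log2 fold change of 0.42 (edgeR adjusted p = 0.375).

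Mmp25 rested on WT replicate 1. This gene, which encodes the lipid-anchored leukolysin of neutrophils, stood at 4.47, 3.42 and 3.39 CPM in Col1a1+/- and 15.7, 4.2 and 4.88 CPM in WT. Its log2 fold change of -1.14 (SE 0.51, edgeR adjusted p = 0.238) came to -0.24 without WT replicate 1. It was 0.19 with the erythroid and neutrophil covariate, which averages both marker lists and is poorly separated from genotype. WT replicate 1 is the library with 0.638% of counts in neutrophil markers, against 0.1057% to 0.176% in Col1a1+/- and 0.1505% and 0.1556% in the other WT libraries. The part of neutrophil RNA in the Mmp25 values was not tested.

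The TIMPs parted. Timp1 (ENSMUSG00000001131, chromosome X, 20736405 to 20740974, GRCm39, plus strand), which encodes the secreted inhibitor of most soluble MMPs, stood at 112, 148 and 150 CPM in Col1a1+/- and 53.7, 85.9 and 82.9 CPM in WT. The lowest library of each genotype was replicate 1, and the genotypes did not overlap. Timp1 rose 1.84-fold, to 136 ± 21.4 CPM in Col1a1+/- against 74.2 ± 17.8 CPM in WT (SD, n = 3 each; log2 fold change 0.88, SE 0.20, edgeR adjusted p = 0.0467). Its log2 fold change was 0.40 with an erythroid and neutrophil covariate and 1.21 with a muscle covariate, and neither was called. Neither covariate is well separated from genotype.

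Timp2, whose protein bridges MT1-MMP and progelatinase A on the cell surface, stood at 401, 545 and 520 CPM in Col1a1+/- and 330, 421 and 434 CPM in WT. The genotypes overlapped through Col1a1+/- replicate 1 (log2 fold change 0.31, SE 0.17, edgeR adjusted p = 0.317). Timp3 stood at 92.1, 119 and 92.8 CPM in Col1a1+/- and 88.2, 75.2 and 75.6 CPM in WT, without overlap (log2 fold change 0.35, SE 0.13, edgeR adjusted p = 0.155). Syn3, a gene of the opposite strand, covers 21.28% of its exon length.

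Timp4 (ENSMUSG00000030317, chromosome 6, 115218853 to 115229166, GRCm39, minus strand), an inhibitor known from heart and muscle, was the TIMP on the other side. It stood at 7.19, 6.67 and 3.53 CPM in Col1a1+/- and 9.64, 18 and 19.8 CPM in WT. All Col1a1+/- libraries were below all WT libraries, with a log2 fold change of -1.44 (SE 0.34) and an adjusted p of 0.0576 by edgeR, just short of the threshold. DESeq2 called it lower (adjusted p = 0.0003538), as did edgeR with library totals, on the osteocyte scale and without WT replicate 1 (0.0151). With a muscle covariate its log2 fold change was -0.23 (edgeR adjusted p = 0.957). Over all the alternatives its log2 fold change lay between -1.86 and -0.23.

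**Figure D3:**
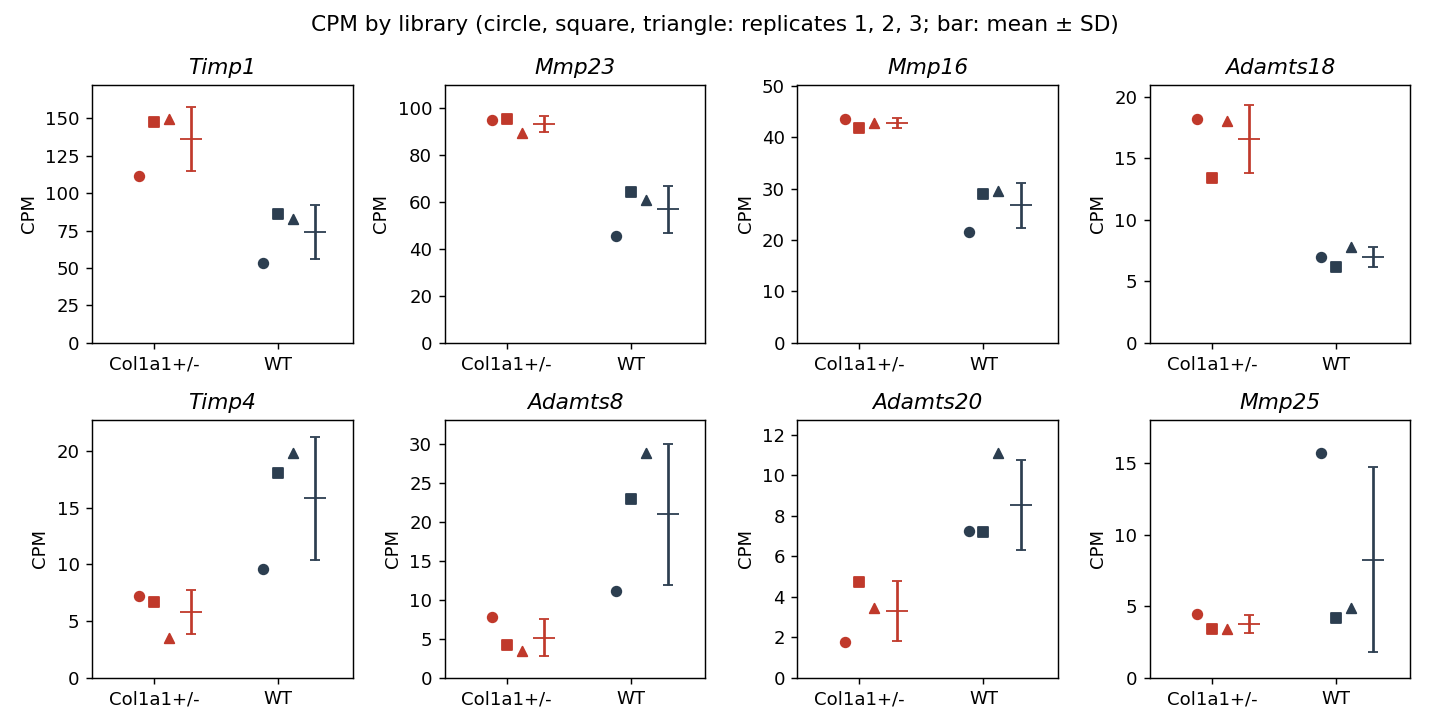
CPM in each library of the 4 members that rose (upper row) and of 4 members with a negative log2 fold change that missed the threshold (lower row), Col1a1+/- left of WT, with the mean and SD of 3 libraries. In the upper row all Col1a1+/- values lie above all WT values, and the Mmp25 panel shows 1 WT library at 15.7 CPM apart from the other 5.

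The ADAMTS proteases that cut proteoglycans held no called gene among 7 tested (median log2 fold change 0.13, 5 of 7 above 0). The leading pair by level did not stand apart between genotypes. Adamts1 stood at 34.4, 38.5 and 39.7 CPM in Col1a1+/- and 39.5, 35.7 and 37.2 CPM in WT. Its log2 fold change was 0.00 (SE 0.10, edgeR adjusted p = 0.995). Adamts5, the main aggrecanase of mouse cartilage which lies 53.1 kb further along chromosome 16 with 1 gene between, stood at 77.6, 72.8 and 70.9 CPM in Col1a1+/- and 75.5, 66.9 and 59.7 CPM in WT (log2 fold change 0.13, SE 0.11, edgeR adjusted p = 0.538).

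Adamts9, which cuts versican and aggrecan, stood at 86.1, 70.7 and 93.1 CPM in Col1a1+/- and 47.9, 65.1 and 53.6 CPM in WT, without overlap. It missed the threshold (log2 fold change 0.58, SE 0.15, edgeR adjusted p = 0.0566), passed it in DESeq2 and with library totals, and came to 0.24 with a muscle covariate. Adamts4, an aggrecanase (log2 fold change 0.56, adjusted p = 0.121), and Adamts15 (0.51, adjusted p = 0.0661) had the same order of genotypes without overlap by edgeR.

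Adamts8 and Adamts20 lay on the other side. Adamts8, which can cut aggrecan, stood at 7.82, 4.26 and 3.39 CPM in Col1a1+/- and 11.1, 23 and 28.9 CPM in WT. Its log2 fold change of -2.02 (SE 0.43) was the farthest from 0 of all tested members, with an adjusted p of 0.0507 by edgeR. It was called lower by DESeq2 and, in edgeR, with library totals, on the osteocyte scale, with DESeq2 size factors (adjusted p = 0.0487) and without WT replicate 1 (0.0184). Adamts20, a versican-cleaving enzyme, stood at 1.77, 4.72 and 3.43 CPM in Col1a1+/- and 7.25, 7.21 and 11.1 CPM in WT (log2 fold change -1.37, SE 0.35, edgeR adjusted p = 0.0616). With a muscle covariate the log2 fold changes were -1.16 for Adamts8 and -0.43 for Adamts20. The libraries differed in muscle RNA in the same direction, at 2.741% ± 1.125 of counts in Col1a1+/- and 6.88% ± 0.9069 in WT (SD, n = 3 each). The covariate, the mean log2 CPM of the muscle genes, was 8.348 to 9.866 in Col1a1+/- and 10.49 to 11.3 in WT. It did not overlap between genotypes, so muscle RNA and genotype cannot be told apart in Timp4, Adamts8 and Adamts20.

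Adamts8 and Adamts15 lie 20.1 kb apart on chromosome 9, on opposite strands, with no gene between them, and had log2 fold changes of -2.02 and 0.51. Per kilobase of exon Adamts8 was the lower of the pair in Col1a1+/- (1.12 CPM per kilobase, with Adamts15 at 2.11) and the higher in WT (4.55, with Adamts15 at 1.49).

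The other ADAMTS genes all had log2 fold changes above 0, at a median of 0.66 over 7 tested genes. In 6 of the 7 all Col1a1+/- libraries lay above all WT libraries, where 14.0% of all tested genes did so. With libraries scaled on osteocyte genes Adamts6, Adamts7, Adamts10 and Adamts17 turned below 0. Adamts18 (ENSMUSG00000053399, chromosome 8, 114423758 to 114575370, GRCm39, minus strand), a close relative of Adamts16 that is mutated in a human eye disorder, was the member that rose most. It stood at 18.2, 13.4 and 18 CPM in Col1a1+/- and 6.94, 6.2 and 7.79 CPM in WT, so that the lowest Col1a1+/- library was well above the highest WT library. Adamts18 rose 2.37-fold (16.6 ± 2.72 CPM in Col1a1+/- against 6.98 ± 0.8 CPM in WT, SD, n = 3 each; log2 fold change 1.25, SE 0.17, edgeR adjusted p = 0.0212). With 1 library left out its log2 fold change stayed between 1.17 and 1.38, and the adjusted p by edgeR lay between 0.00712 and 0.119.

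Adamts10, which binds fibrillin microfibrils and has the highest level of the 14 ADAMTS members, stood at 273, 235 and 238 CPM in Col1a1+/- and 167, 215 and 200 CPM in WT (log2 fold change 0.36, SE 0.13, edgeR adjusted p = 0.147). Adamts7, which cuts the cartilage protein COMP, stood at 17.2, 18.2 and 24.8 CPM in Col1a1+/- and 12.2, 17.4 and 15.2 CPM in WT, with 1 pair of libraries out of order. Its relative Adamts12 had a log2 fold change of 0.70 (edgeR adjusted p = 0.093) and was called by DESeq2, and with a muscle covariate it came to 0.080. Without Col1a1+/- replicate 3, the highest library of both genes, Adamts12 came to 0.44 and Adamts17 to 0.34. Adamts6 (0.45), Adamts17 (0.66) and Adamts16 (0.83, at 11 to 38 counts per library) did not pass.

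Set against their inhibitors, the enzymes gave an unequal picture. Ratios of counts within a library do not depend on how libraries are scaled, and the test for each was an exact permutation test, two-sided, which cannot give a p below 0.1 with 3 libraries against 3. The ratio of Mmp13 to Timp1 was 12.58, 11.86 and 14.6 in Col1a1+/- and 24.8, 22.43 and 19.03 in WT. The groups did not overlap, and the Col1a1+/- ratio was 0.59 times that of WT (exact permutation p = 0.1, the smallest possible). This ratio holds 1 of the called members, Timp1.

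The ratios within the gelatinase activation complex did not part the genotypes in every library. Mmp14 to Timp2 was 1.394, 1.12 and 1.337 in Col1a1+/- and 1.368, 1.324 and 1.13 in WT (exact permutation p = 0.8). Mmp2 to Timp2 was 0.8105, 0.7819 and 0.8715 in Col1a1+/- and 0.5454, 0.7852 and 0.6801 in WT (exact permutation p = 0.2). Adamts5 to Timp3 was 0.8423, 0.6106 and 0.7641 in Col1a1+/- and 0.8562, 0.8893 and 0.7888 in WT (exact permutation p = 0.2). Adjusted over the 4 ratios compared, none was below 0.267.

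**Figure D4:**
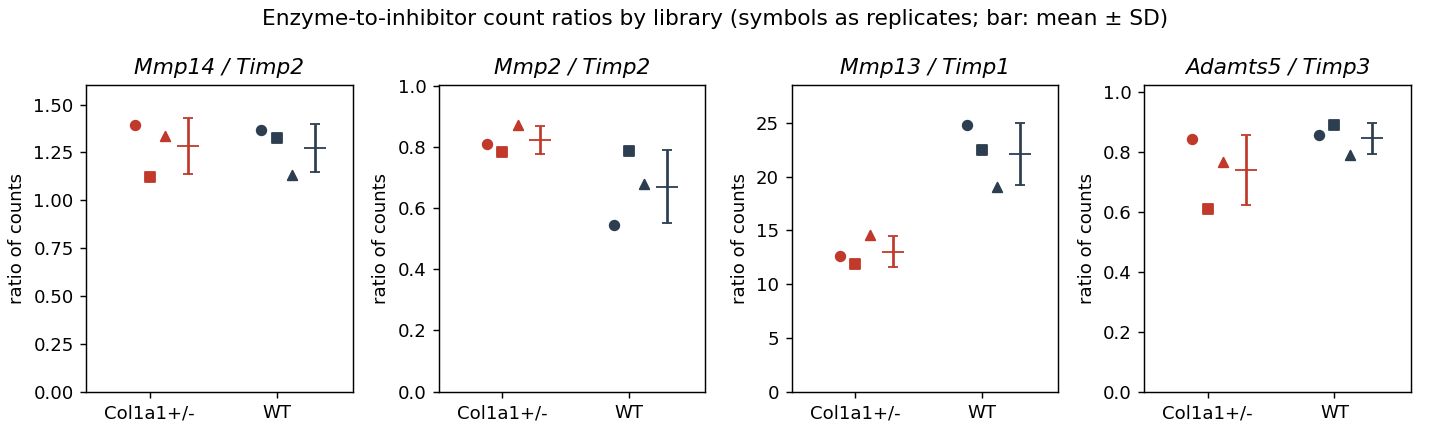
Count ratio of an enzyme to an inhibitor in each library, Col1a1+/- left of WT, with the mean and SD of 3 libraries. The genotypes part for Mmp13 to Timp1 (13.01 ± 1.419 in Col1a1+/- and 22.09 ± 2.9 in WT) and overlap for the other 3 ratios.

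Genes that act on or around these proteases were read from lists beside the members. Of 12 tested activators, inhibitors and clearance receptors 2 rose and none fell, where 1.43% of all tested genes were called higher. All 12 log2 fold changes were above 0 (median 0.50). Only the 2 called genes, Pcsk6 and Reck, were followed through the alternatives. With libraries scaled on osteocyte genes they came to 0.49 and -0.09. Pcsk6, which encodes a furin-like enzyme that removes propeptides, stood at 334, 257 and 333 CPM in Col1a1+/- and 128, 178 and 158 CPM in WT (log2 fold change 1.00, SE 0.16, edgeR adjusted p = 0.0239). Reck, a membrane-bound inhibitor of MMPs, stood at 48.5, 44.4 and 41.8 CPM in Col1a1+/- and 33.2, 32.4 and 32.3 CPM in WT (log2 fold change 0.46, SE 0.10, edgeR adjusted p = 0.0414).

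Of 12 tested substrates 5 rose and none fell (median 0.85): Acan, Fn1, Comp, Bgn and Col2a1. Of all tested genes 1.43% were called higher. Aggrecan (Acan) stood at 225, 253 and 158 CPM in Col1a1+/- and 75.6, 91.5 and 60.3 CPM in WT (log2 fold change 1.48, SE 0.21, edgeR adjusted p = 0.0218). Comp, a glycoprotein of cartilage and tendon, had a log2 fold change of 1.23 (edgeR adjusted p = 0.0299). Acan, Comp and Col2a1 are also chondrocyte markers, which made up 0.655% ± 0.07322 of all counts for Col1a1+/- and 0.2872% ± 0.05612 for WT (SD, n = 3 each), and the part of cartilage RNA in these values was not tested. Without Col1a1+/- replicate 1, WT replicate 2 or WT replicate 3 none of these substrates, nor Pcsk6 or Reck, was called by edgeR, with log2 fold changes that stayed above 0.

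MMPs and ADAMTS genes outside the 33 members gave no call among 7 tested (median 0.53, 6 of 7 above 0). Mmp9 stood at 2493, 2367 and 3016 CPM in Col1a1+/- and 1649, 2086 and 1729 CPM in WT (log2 fold change 0.53, SE 0.19, edgeR adjusted p = 0.132). Per kilobase of exon it stood at 742 CPM in Col1a1+/- and 515 in WT, where Mmp13 stood at 666 and 603. Adamts2, a procollagen propeptidase, had the smallest p (log2 fold change 0.56, edgeR adjusted p = 0.0537). It was called higher by DESeq2 and limma-voom and, in edgeR, with DESeq2 size factors, with library totals, without a filter and without WT replicate 1, and it came to 0.048 on the osteocyte scale. Mmp8, the neutrophil collagenase gene, stood at 20.3, 15.6 and 12.5 CPM in Col1a1+/- and 58.2, 19.8 and 15 CPM in WT (log2 fold change -0.94, edgeR adjusted p = 0.354). As with Mmp25, WT replicate 1 was the high library.

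**Figure D5:**
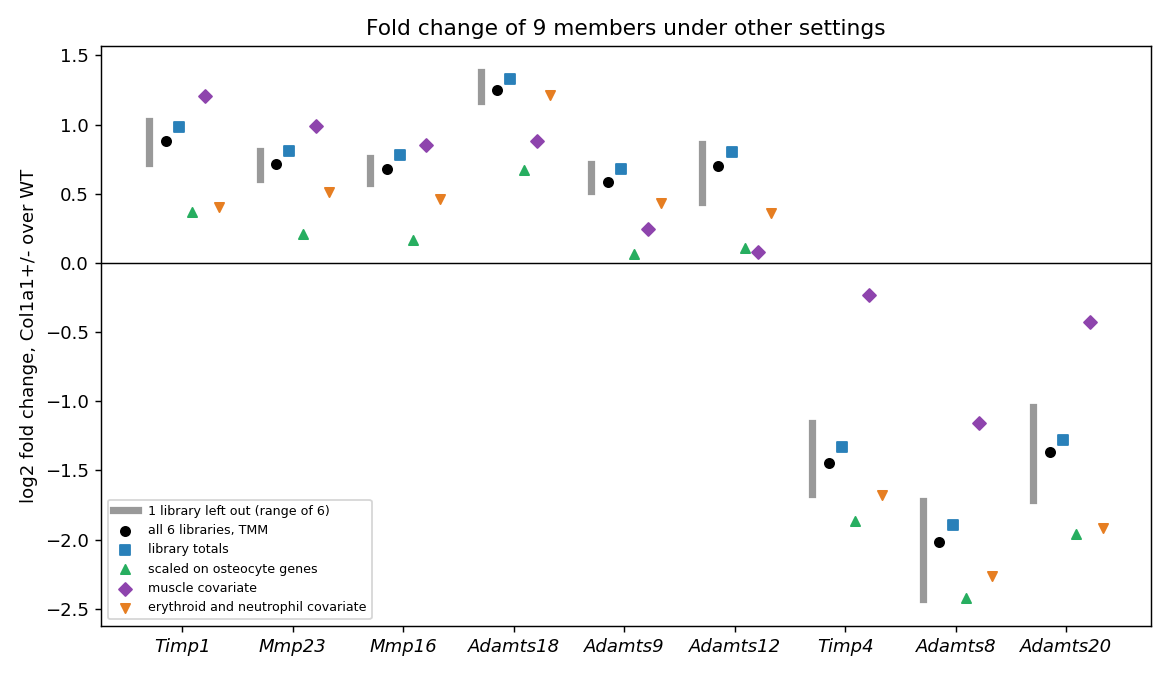
Log2 fold change, Col1a1+/- over WT, of 9 members under other scalings, covariates and left-out libraries (grey bars, the range of 6). Timp1, Mmp23, Mmp16 and Adamts18 stay above 0 throughout, all 4 lowest when libraries are scaled on osteocyte genes, and the muscle covariate brings Timp4 to -0.23 and Adamts20 to -0.43. Muscle covariate and genotype cannot be told apart here.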

How the data were processed

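The members and all gene lists were chosen with earlier results of these data known. Each deposited file gives unnormalized counts for 1 library, made by the authors with featureCounts 2.0.3 on Ensembl 107 exons (GRCm39), paired-end and without a strand option, per the file headers. The submitters' processing notes also name Trimmomatic 0.39, HISAT2 2.2.1 and SAMtools 1.20. Under the tool's default settings reads over several genes are not counted. Over 10% of exon length was shared with another gene in 7 members.

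Symbols came from GENCODE M21 by gene identifier, for 52073 of 56748 identifiers. The genotypes were compared in R 4.3.3 by edgeR 4.0.16 (filterByExpr, 18514 genes; TMM; robust quasi-likelihood F test; genotype as the only term). The SE is the absolute log2 fold change over the square root of F. Totals of 26830644 to 32379684 counts keep counting error small except in the lowest genes. Library pairs of a genotype differed by 25.75 to 87.61 times the variance of independent counts, so none was a copy. Alternatives, with limma 3.58.1 and DESeq2 1.42.0 among them, were other scalings, no filter, covariates, the replicate block and leaving out each library. Covariates and log2 CPM scores used a prior count of 2. The fits were tested on simulated data.

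Named with the value in each library are the called members, the leading 2 by level of each role list, the smallest p in each direction and the genes of the tested ratios. Adamts20, Mmp3 and Mmp25 were added after their values were seen. Of other lists the called genes are named, else the smallest p in each direction, and Mmp9 was added for its level.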

Additional observations from a re-analysis of the deposited data

How the results depend on the processing

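The 4 members that rose kept a log2 fold change above 0 under all 15 alternatives, and their calls did not hold as well. Of the members, 4 were called higher and 0 lower with all 6 libraries by edgeR. With DESeq2 size factors 1 was called lower, with library totals 3 lower, without a filter 8 higher and 1 lower, and by DESeq2 7 higher and 3 lower. Scaling on osteocyte genes gave 0 higher and 4 lower and turned the member median to -0.1544. No member was called higher with the muscle covariate or the erythroid and neutrophil covariate, where 6 and 10 had an unadjusted p under 0.05, and the cause was not tested. With 1 library left out, 0 to 4 members were called higher and 0 to 3 lower, and the median lay between 0.29 and 0.44. Without WT replicate 1, 4 were higher and 3 lower (Adamts8, Mmp15, Timp4).

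The labels do not say whether same-numbered samples were paired. Deviations of same-numbered libraries correlated at 0.1072, 0.0413 and -0.122, and those of other pairs at -0.198 to 0.194. With 3 libraries per genotype this cannot settle the question, and the main fit used no pairing. With the replicate block 2 members were called higher, Timp1 and Adamts18.

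Signs turned as follows. On the osteocyte scale the log2 fold changes were -0.37 for Mmp11, -0.39 for Mmp13, -0.47 for Mmp19, -0.25 for Mmp28, -0.23 for Mmp14, -0.037 for Mmp17, -0.23 for Timp2 and -0.24 for Timp3. There Adamts1 was at -0.59, Adamts4 at -0.0098, Adamts5 at -0.45, Adamts15 at -0.066, Adamts6 at -0.13, Adamts7 at -0.11, Adamts10 at -0.15, Adamts17 at -0.0012, Col1a1 at -0.30 and Reck at -0.094. With the muscle covariate Mmp11 was at -0.16, Mmp12 at 0.25, Mmp19 at -0.020, Mmp15 at 0.11, Adamts1 at -0.040, Adamts5 at -0.025, Adamts17 at -0.12 and Adamtsl5 at 0.55. With the erythroid and neutrophil covariate Mmp11 was at -0.22, Mmp12 at 0.43, Mmp13 at -0.25, Mmp25 at 0.19, Timp2 at -0.026, Adamts1 at -0.0076, Col1a1 at -0.10 and Mmp8 at 0.55. Adamts1 was at -0.0037 without a filter and -0.0021 by limma-voom. Leaving out 1 library gave ranges of -0.032 to 0.076 for Adamts1, -0.0072 to 0.29 for Mmp11, -0.98 to 0.029 for Mmp12, -0.0058 to 0.31 for Mmp13 and -0.012 to 0.38 for Mmp19. None of these turned values passed the threshold. Leaving out 1 library moved each log2 ratio difference by less than the spread between libraries (1 SD), and that of Mmp13 to Timp1 lay between -0.86 and -0.67. Depth limits Mmp10, Mmp24 and Adamts16, with at most 38 counts in any library.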

Other observations

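Further proteins with metalloprotease or ADAMTS-like domains were read beside the members. ADAM genes encode membrane proteases that shed surface proteins. Of 10 tested, 1 rose and none fell (median log2 fold change 0.17), where 1.43% of all tested genes were called higher. It was Adam12, a protease known from muscle fusion, bone and cartilage, at 160, 146 and 214 CPM in Col1a1+/- and 89.1, 113 and 115 CPM in WT (log2 fold change 0.71, SE 0.17, edgeR adjusted p = 0.0486). With a muscle covariate it stood at 0.37 and was not called.

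The ADAMTS-like genes, whose proteins have the binding domains of ADAMTS proteases without the protease, held no call among 7 tested (median -0.14, 2 of 7 above 0). Adamtsl2, which binds fibrillin and latent TGF-beta complexes, stood at 11.3, 7.86 and 12.5 CPM in Col1a1+/- and 3.35, 6.56 and 5.61 CPM in WT (log2 fold change 1.03, SE 0.28, edgeR adjusted p = 0.0672). Adamtsl5 stood at 17.1, 20.3 and 10.8 CPM in Col1a1+/- and 18.2, 31 and 49.1 CPM in WT (log2 fold change -1.03, edgeR adjusted p = 0.178).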
